A study of Mus musculus with 9 samples.

Results

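Interferon-stimulated genes were examined in the hippocampus of mice with 1 mutant Braf allele. The genes were Irf9, Stat2, Irf7, Ifit1, Ifit3, Oasl2, Bst2, Isg15 and Usp18, chosen by name as transcripts that type I interferon induces, and all 9 were found among the 18275 genes of the deposited table. All 9 had a mean of at least 10 normalised counts over the libraries, the minimum for a gene to be tested. Stranded mRNA libraries were made from total RNA of hippocampal tissue of adult male C57BL/6N mice, 1 library per animal. The groups were 4 Nestin;BrafKE/+ mice, labelled K499E, and 5 Braf+/+ mice, labelled WT, and the labels name no agent for either group. Nestin;BrafKE/+ mice have 1 wild-type allele and 1 floxed allele that encodes the mutant kinase from its own locus after Cre recombination. The Nestin promoter drives Cre in neural stem cells, so neurons, astrocytes and oligodendrocytes descend from recombined cells, whereas microglia and endothelial cells come from other lineages. The labels do not say whether Braf+/+ mice carried Cre. The comparison asks whether these transcripts differ between the genotypes.

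Type I interferons bind a receptor whose kinases activate STAT proteins, and STAT2 joins IRF9 in ISGF3, the complex that binds interferon-stimulated response elements and switches on antiviral genes. Most of the induced genes encode proteins that bind foreign RNA, restrict viruses or tag proteins, and a few feed back on the pathway, IRF7 by amplifying it and USP18 by damping it. In the brain, microglia, astrocytes, endothelial cells and neurons can all respond to interferon, and a low tonic level of these transcripts is present without infection.

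Promoter sequences were examined because the genes share an inducer and could be sorted by whether a response element lies near the start. RefSeq promoters, which run from 250 bases before to 50 bases after a start, were given for 8 of the 9 genes, with 9 entries in all, and Usp18 had no entry. The core of the interferon-stimulated response element was searched as GAAANNGAAA on both strands, and matches were allowed to overlap each other. It was present in 5 of the 9 entries (55.6%), those of Ifit1, Ifit3, Isg15, Bst2 and Stat2. Among entries of the other type I interferon-stimulated genes tested below, it was present in 22 of 63 (34.9%). Of all 32851 promoter entries of the same length, 1131 had it (3.44%). No match lay in the windows of Oasl2, Irf7 and Irf9. The core of the gamma-activated site, TTCNNNGAA, which reads the same on both strands, was present in the entry of Bst2 alone among these genes and in 8.30% of all entries. Each stretch below is written in the direction of its gene with 20 bases on each side of the matches, except that Ddx60 stops at -1, before its start. Capitals mark the letters of GAAANNGAAA or its reverse complement, and positions were found by an exact match in GRCm39. Ifit1 lies at chr19:34618165-34618233 and Ifit3 at chr19:34560753-34560836, both on the plus strand, and each has its matches in the reverse orientation. Isg15 lies at chr4:156285312-156285373 and Bst2 at chr8:71990211-71990266, both on the minus strand, and overlapping matches run together there. Stat2 lies at chr10:128106125-128106174 on the plus strand. Ddx60 (chr8:62381048-62381120, plus strand) is not one of the 9 genes and is shown because it was the pathway gene that rose past the threshold. Tgtp1, the pathway gene that fell past the threshold, also had 1 match of GAAANNGAAA, at -77 from its start. Its window held the core of the gamma-activated site as well, at -88, and is not shown.
Ifit1: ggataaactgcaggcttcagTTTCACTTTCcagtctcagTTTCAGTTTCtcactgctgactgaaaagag
Ifit3: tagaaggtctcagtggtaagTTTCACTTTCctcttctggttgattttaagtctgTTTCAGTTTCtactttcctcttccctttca
Isg15: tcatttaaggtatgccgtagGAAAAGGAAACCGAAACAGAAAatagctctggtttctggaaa
Bst2: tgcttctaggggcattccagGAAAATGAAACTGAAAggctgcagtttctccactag
Stat2: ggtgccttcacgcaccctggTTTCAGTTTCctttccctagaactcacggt
Ddx60: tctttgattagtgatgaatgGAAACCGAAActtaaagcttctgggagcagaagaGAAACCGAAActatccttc
The first and last matches begin at -104 and -85 from the start for Ifit1, -156 and -122 for Ifit3, -78 and -66 for Isg15, and -130 and -124 for Bst2. The single match of Stat2 begins at -222. A match is a run of letters and was not tested for binding.

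Library totals lay between 19551000 and 20092000 normalised counts, and the number of reads behind a value is unknown, because the values had been adjusted for batches and scaled. The labels name no batch, but the names of the libraries start with 1 of 4 prefixes. Of these, 2 with consecutive numbers were joined as series A, and the others made series B and C. In series A, control replicates 1 and 2 share a prefix that no mutant library has. Of the mutant libraries, replicate 1 belonged to series A, replicates 2 and 3 to series B and replicate 4 to series C. Of the controls, replicates 1 to 3 belonged to series A, replicate 4 to series B and replicate 5 to series C. The fit has a term for the series, so a series left with 1 genotype does not inform the genotype difference. Leaving out Nestin;BrafKE/+ replicate 1 therefore removes series A from the comparison, and leaving out Braf+/+ replicate 4 removes series B. Leaving out either library of series C removes series C. Braf itself averaged 2264 ± 144 normalised counts over the mutant libraries (SD, n = 4) and 2786 ± 153 over the controls (SD, n = 5). Its log2 fold change of -0.30 (SE 0.07) had an adjusted p of 0.0378, which was above 0.05 without any library other than Nestin;BrafKE/+ replicate 1 or Braf+/+ replicate 3 (highest 0.203, without Braf+/+ replicate 4). Transcripts of the mutant and the wild-type allele share 1 row, so Braf does not check the allele.

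Ifit3 differed most between the genotypes, with a mean 1.59-fold higher in Nestin;BrafKE/+ (95% interval 1.23 to 2.07), and its groups did not overlap. Ifit1, Oasl2 and Isg15 had log2 fold changes from 0.49 to 0.56 with overlapping groups. The factors that transmit the signal, Irf9 and Stat2, had log2 fold changes of -0.12 and -0.07. Of the 9 genes, 0 had an adjusted p under 0.05 in limma, where 2.88% of the 16196 genes tested passed. An unadjusted p under 0.05 was found for 2 of the 9, Ifit3 and Oasl2, against 18.5% of all genes tested. For 1 of the 9, Ifit3, the ranges of the groups were separate, against 15.7% of all genes. The log2 fold change was above 0 for 7 of the 9 genes, with a median of 0.25, and the median over all genes tested was 0.00033. Fewer cells of a type and less RNA per cell cannot be told apart in such bulk tissue.

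**Figure D1:**
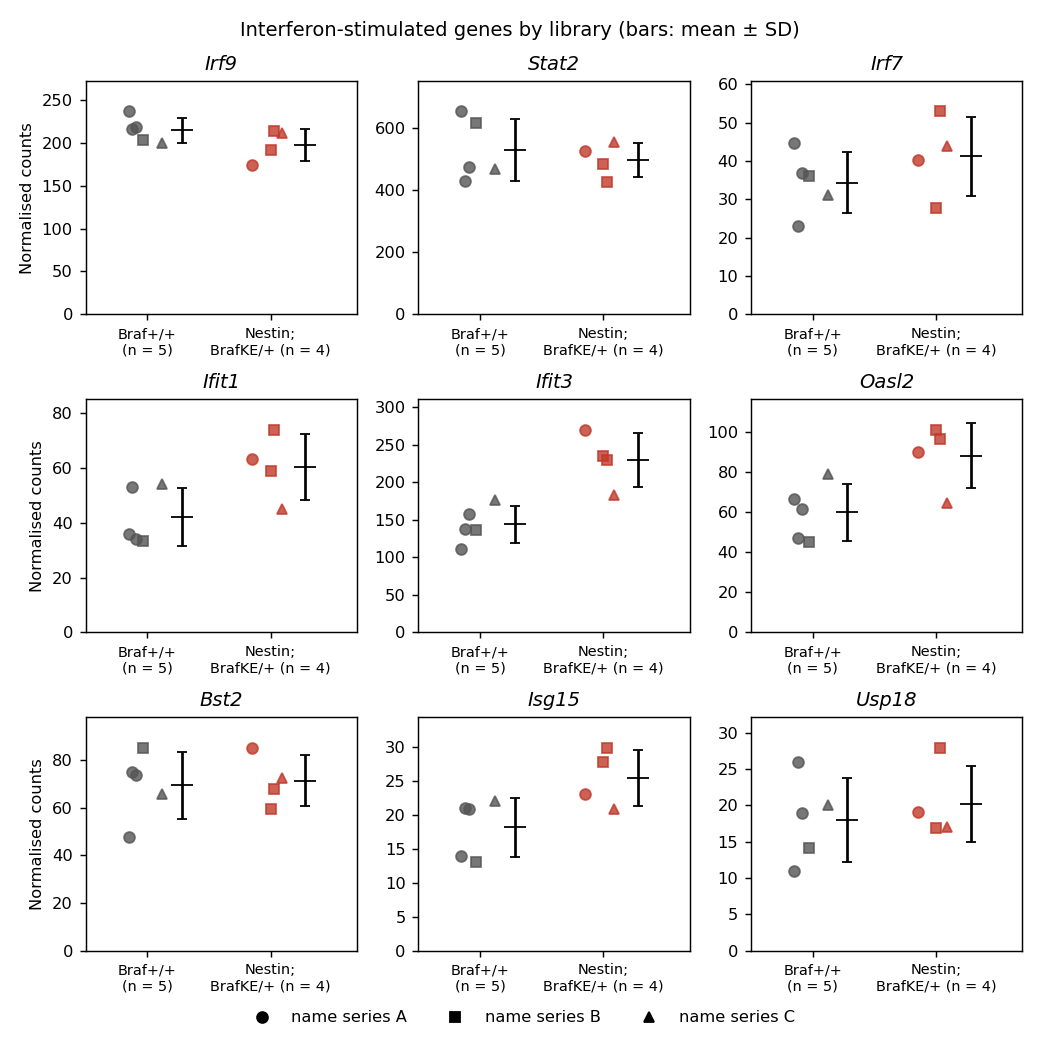
Normalised counts of the 9 genes in each library (vertical axes, each starting at 0), with Braf+/+ libraries in grey and Nestin;BrafKE/+ libraries in red, marker shapes for the 3 series of library names and bars for mean ± SD. Only for Ifit3 do all 4 Nestin;BrafKE/+ libraries, from 183 to 270, sit above all 5 Braf+/+ libraries, from 111 to 176.

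Irf9 (ENSMUSG00000002325, chromosome 14, 55841028 to 55847812 in GRCm39, as for all gene positions here) encodes the DNA-binding subunit of ISGF3. Its values in Nestin;BrafKE/+ replicates 1 to 4 were 174, 192, 214 and 211 normalised counts, and those in Braf+/+ replicates 1 to 5 were 236, 216, 218, 203 and 199. Mutant replicates 1 and 2 lay below every control and the other mutant libraries lay among the controls, so the groups overlapped. The log2 fold change was -0.12 (SE 0.11, 95% interval -0.37 to 0.13, adjusted p = 0.622). This interval leaves room for a fall of up to 0.37 and a rise of up to 0.13 on the log2 scale. Without Nestin;BrafKE/+ replicate 1, and so without series A in the comparison, the log2 fold change was 0.03. Rnf31 overlaps Irf9 on the same strand, so some reads cannot be assigned with certainty.

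Stat2 (ENSMUSG00000040033, chromosome 10, 128106352 to 128128735) encodes the STAT protein that is specific to type I and type III interferon signalling. It had 524, 485, 427 and 553 normalised counts in Nestin;BrafKE/+ replicates 1 to 4 and 653, 430, 473, 617 and 466 in Braf+/+ replicates 1 to 5. Control replicates 1 and 4 were the highest of all libraries, the other controls lay in the mutant range, and the groups overlapped. Stat2 had a log2 fold change of -0.07 (SE 0.15, 95% interval -0.40 to 0.25, adjusted p = 0.835). It was 0.12 without Braf+/+ replicate 4, and so without series B in the comparison.

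Irf7 (ENSMUSG00000025498, chromosome 7, 140842619 to 140846398) encodes an interferon-induced factor that drives transcription of type I interferon genes. In Nestin;BrafKE/+ replicates 1 to 4 it had 40.2, 27.8, 52.9 and 43.9 normalised counts, and in Braf+/+ replicates 1 to 5 it had 44.7, 23.0, 36.8, 36.2 and 31.03. Mutant replicate 3 was the highest library, mutant replicate 2 lay below all controls but 1, and the groups overlapped widely. The log2 fold change of Irf7 was 0.25 (SE 0.28, 95% interval -0.36 to 0.87, adjusted p = 0.673), and it ran from 0.14 without Nestin;BrafKE/+ replicate 3 to 0.40 without Nestin;BrafKE/+ replicate 2. Phrf1 overlaps Irf7 on the opposite strand, and the libraries were made with a stranded kit.

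Ifit1 (ENSMUSG00000034459, chromosome 19, 34618271 to 34632174) encodes a protein that binds viral RNA lacking the host cap modification. Its normalised counts were 63.2, 58.6, 73.9 and 44.9 in Nestin;BrafKE/+ replicates 1 to 4 and 35.8, 53.0, 33.8, 33.1 and 54.0 in Braf+/+ replicates 1 to 5. The first 3 mutant libraries lay above every control, and mutant replicate 4 lay between the low controls (replicates 1, 3 and 4) and the high ones (replicates 2 and 5). Ifit1 had a log2 fold change of 0.52 (SE 0.25, 95% interval -0.03 to 1.08, adjusted p = 0.304). It was 0.28 without Braf+/+ replicate 4, and so without series B in the comparison. Without either library of series C it was 0.80 (adjusted p = 0.139 and 0.142). A two-sided exact permutation test of the difference of means gave p = 0.0714 over the 126 divisions of the 9 libraries and 0.167 over the 24 divisions within series. Such tests, here and for the genes below, treat libraries as interchangeable. Values already adjusted for batches may not be, so these p-values are approximate.

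Ifit3 (ENSMUSG00000074896, chromosome 19, 34560899 to 34566443) lies near Ifit1 and encodes a partner that stabilises IFIT complexes. It had 270, 235, 230 and 183 normalised counts in Nestin;BrafKE/+ replicates 1 to 4 and 111, 138, 157, 137 and 176 in Braf+/+ replicates 1 to 5. Every mutant library was above every control, and the narrowest gap lay between mutant replicate 4 and control replicate 5, the libraries of series C. The mean was 230 ± 35.6 (SD, n = 4) against 144 ± 24.3 (SD, n = 5). On the log2 scale the difference was 0.67 (SE 0.17, 95% interval 0.30 to 1.05), with an adjusted p of 0.0635, just above the threshold. Two-sided exact permutation of Ifit3 gave p = 0.0159 over all divisions and 0.0417 within series, the latter the smallest that 24 divisions allow, and neither was adjusted over genes.

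Whether Ifit3 passed depended on the libraries in the fit. It passed without series C, which held 1 library of each genotype, so that leaving out either one removes the series from the comparison and gives the same estimate, 0.89 (adjusted p = 0.0234 without the mutant library and 0.0230 without the control). Without Nestin;BrafKE/+ replicate 1, and so without series A in the comparison, the log2 fold change was 0.46 (adjusted p = 0.316). Without Braf+/+ replicate 4, and so without series B, it was 0.63 (adjusted p = 0.251). These 2 values are therefore not the effect of 1 library alone. Ifit3 shares 39.1% of its 31-base words with its neighbour Ifit3b, so the division of reads between them is uncertain. Ifit3b alone differed by 0.60 on the log2 scale (adjusted p = 0.0807), also with no overlap of the groups. Their summed value, an alternative chosen after the data had been seen, averaged 363 ± 50.3 over the mutant libraries (SD, n = 4) and 232 ± 34.8 over the controls (SD, n = 5). On the log2 scale the sum of Ifit3 and Ifit3b differed by 0.65 (SE 0.15, 95% interval 0.32 to 0.98), and its adjusted p was 0.0458, below the threshold.

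Oasl2 (ENSMUSG00000029561, chromosome 5, 115034997 to 115050295) encodes a protein of the 2′-5′ oligoadenylate synthetase family that is induced by double-stranded RNA and interferon. Nestin;BrafKE/+ replicates 1 to 4 had 90.4, 101, 96.8 and 64.8 normalised counts of Oasl2, and Braf+/+ replicates 1 to 5 had 66.6, 47.0, 61.7, 45.2 and 79.1. As for Ifit1, the first 3 mutant libraries lay above every control and mutant replicate 4 lay among the controls. The log2 fold change was 0.56 (SE 0.23, 95% interval 0.05 to 1.08, adjusted p = 0.229). It was 0.27 (adjusted p = 0.706) without Braf+/+ replicate 4, and so without series B in the comparison. Without either library of series C it was 0.86 (adjusted p = 0.0735 and 0.0748). For Oasl2 the exact two-sided permutation test gave p = 0.0476 over all divisions and 0.0833 within series.

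Bst2 (ENSMUSG00000046718, chromosome 8, 71986895 to 71990114) encodes tetherin, which holds budding virus particles at the cell surface. The values were 85.3, 59.6, 67.9 and 72.8 normalised counts in Nestin;BrafKE/+ replicates 1 to 4 and 47.7, 75.01, 73.7, 85.4 and 66.1 in Braf+/+ replicates 1 to 5. Every mutant library lay within the range of the controls. Its log2 fold change was 0.05 (SE 0.21, 95% interval -0.42 to 0.52, adjusted p = 0.931). It was -0.18 without Nestin;BrafKE/+ replicate 1, and so without series A in the comparison, and -0.04 without Braf+/+ replicate 1.

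Isg15 (ENSMUSG00000035692, chromosome 4, 156283883 to 156285303) encodes a ubiquitin-like protein that is coupled to other proteins after interferon. Isg15 had 23.1, 27.8, 30.0 and 20.9 normalised counts in Nestin;BrafKE/+ replicates 1 to 4 and 13.9, 21.0, 20.9, 13.1 and 22.0 in Braf+/+ replicates 1 to 5. Again mutant replicates 1 to 3 lay above every control, and mutant replicate 4 had about the value of control replicates 2, 3 and 5. The log2 fold change of Isg15 was 0.49 (SE 0.29, 95% interval -0.16 to 1.13, adjusted p = 0.414). It was 0.16 without Braf+/+ replicate 4, and so without series B in the comparison. Exact permutation gave a two-sided p of 0.0714 over all divisions and 0.0833 within series. Isg15 shares 11.5% of its 31-base words with other genes, mostly Gm9706.

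Usp18 (ENSMUSG00000030107, chromosome 6, 121222848 to 121247877) encodes the protease that removes ISG15 from proteins and also restrains the interferon receptor. For Usp18, Nestin;BrafKE/+ replicates 1 to 4 had 19.1, 16.9, 28.0 and 16.9 normalised counts and Braf+/+ replicates 1 to 5 had 10.9, 26.004, 18.9, 14.1 and 20.02. Mutant replicate 3 and control replicate 2 were the high libraries, control replicate 1 was the low one, and the groups overlapped. The log2 fold change was 0.19 (SE 0.34, 95% interval -0.56 to 0.94, adjusted p = 0.809). It was -0.02 without Braf+/+ replicate 4, and so without series B in the comparison.

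**Figure D2:**
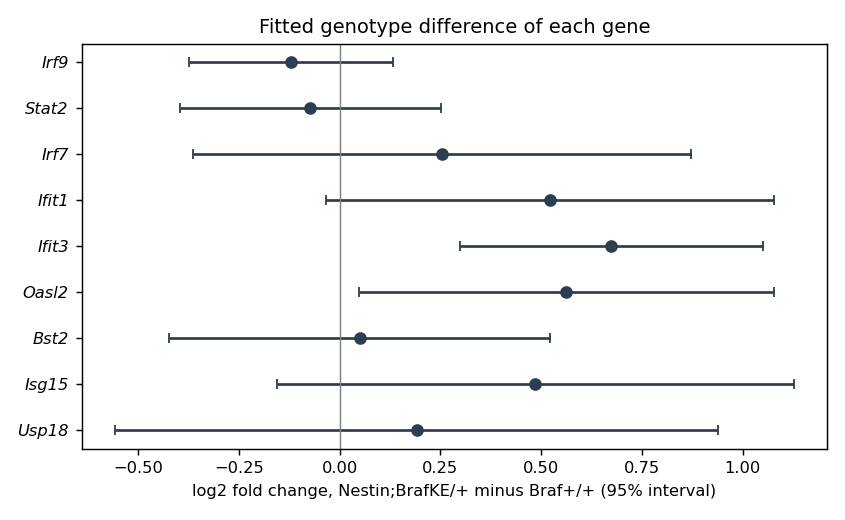
Fitted log2 fold changes of the 9 genes (horizontal axis, Nestin;BrafKE/+ minus Braf+/+, from limma with the name series as a term), with 95% intervals that are not adjusted over genes. The intervals of Ifit3 (0.30 to 1.05) and Oasl2 (0.05 to 1.08) lie above 0, and the other 7 include 0.

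The 9 genes were among the more variable ones. The residual SD of 8 of them was above the 75th percentile of all genes tested, with a median percentile of 83.9 and a range from 47.4 for Irf9 to 91.3 for Usp18. Standard errors of log2 fold changes had a median of 0.23 among the 9 genes and of 0.10 among all genes tested. Nestin;BrafKE/+ replicate 3 was the highest library for 4 of the 9 genes (Ifit1, Isg15, Irf7 and Usp18). Braf+/+ replicates 1 and 4 were each the lowest for 3, but were also the highest for 2 and 1 in turn. Nestin;BrafKE/+ replicates 1 and 3 were each the lowest for 1. Relative to each gene's mean over the libraries, the 9 genes averaged 0.20, 0.08, 0.32 and 0.03 on the log2 scale in Nestin;BrafKE/+ replicates 1 to 4. In Braf+/+ replicates 1 to 5 they averaged -0.23, -0.11, -0.08, -0.22 and 0.01, so that mutant replicate 4 and control replicate 5 were the closest pair of the opposite genotypes. Each genotype mean rests on the same few libraries for all 9 genes, so the genes do not count as independent observations.

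Levels were compared between genes per kilobase of annotated exon, since longer transcripts gather more reads. In Braf+/+ the order of the normalised counts per kilobase was Stat2 at 83.7 ± 15.8, Bst2 at 57.3 ± 11.6, Ifit3 at 49.95 ± 8.45, Irf9 at 37.0 ± 2.54, Isg15 at 23.2 ± 5.52, Oasl2 at 9.40 ± 2.22, Irf7 at 9.09 ± 2.12, Ifit1 at 5.65 ± 1.43 and Usp18 at 5.53 ± 1.78 (SD, n = 5). The ranges of mean ± SD overlapped for the neighbours Stat2 and Bst2, Bst2 and Ifit3, Oasl2 and Irf7, Irf7 and Ifit1, and Ifit1 and Usp18. In Nestin;BrafKE/+ Ifit3 stood at 79.7 ± 12.4 per kilobase beside Stat2 at 78.9 ± 8.64 (SD, n = 4). These lengths join the exons of every annotated transcript, and for Irf7 they cover the whole gene, so the level per kilobase of such genes is understated.

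Differences were also taken within each series of library names. The 9 genes had a median difference of mean log2 values, mutant minus control, of 0.32 in series A, 0.60 in series B and 0.06 in series C, and 8, 6 and 5 of the 9 were above 0. Ifit3 stood 1.00 higher in series A, 0.76 higher in series B and 0.06 higher in series C. In the same order, the differences were 0.65, 0.97 and -0.26 for Ifit1 and 0.64, 1.12 and -0.28 for Oasl2. Series C, with 1 library of each genotype, thus gave a difference below 0 for Ifit1 and Oasl2 and near 0 for Ifit3. Isg15 had 0.32, 1.09 and -0.07, and Usp18 had 0.11, 0.60 and -0.23. For Irf7 the values were 0.25, 0.09 and 0.49. Ifit3 and Irf7 were higher in Nestin;BrafKE/+ in all 3 series, which makes 2 of 9, against 18.3% of all genes tested. The within-series differences of Bst2 were 0.41, -0.42 and 0.14, those of Stat2 were 0.04, -0.44 and 0.25, and those of Irf9 were -0.36, -0.0034 and 0.09. Whether the series differ from each other was not tested.

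**Figure D3:**
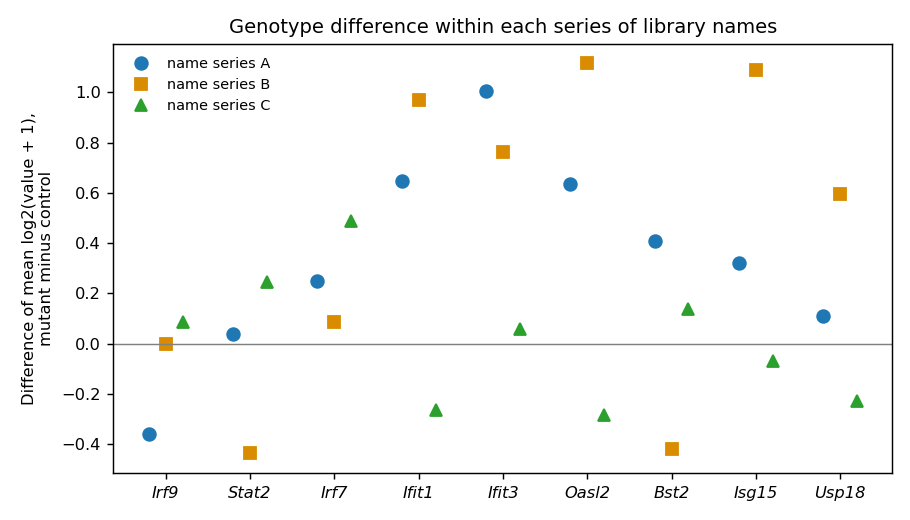
Difference of the mean log2(value + 1) between Nestin;BrafKE/+ and Braf+/+ libraries (vertical axis) of each gene within each series of library names. Series C, with 1 library per genotype, lies below 0 for Ifit1, Oasl2, Isg15 and Usp18 and at 0.06 for Ifit3, whereas series A and B lie above 0 for these 5 genes.

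Other genes of the pathway were counted in 7 lists. Of 166 listed genes 117 were tested, 75 had a log2 fold change above 0, and the median was 0.06. An adjusted p under 0.05 was found for 2 of the 117 (1.71%), Ddx60 and Tgtp1, and an unadjusted p under 0.05 for 19 (16.2%), against 2.88% and 18.5% of all genes tested. None of 21 interferon ligand genes was found by name in the deposited table, so the ligands could not be analysed here. Of the receptors and their kinases 8 of 9 were tested and 0 passed in limma, also without adjustment, with log2 fold changes from -0.19 for Il10rb to 0.06 for Ifngr1, a subunit of the interferon-gamma receptor. The STAT and IRF factors had 8 of 9 genes tested and 0 passed. An unadjusted p under 0.05 was found for 2 of them, Stat3 at -0.28 (adjusted p = 0.0571) and Irf1, named after its value was seen, at 0.29 (adjusted p = 0.263). Nucleic acid sensors and adaptors, which start the response to foreign RNA and DNA, had 17 of 19 genes tested, 9 above 0 and 0 that passed in limma with or without adjustment, from -0.21 for Sting1 to 0.30 for Tlr7.

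Of 74 other type I interferon-stimulated genes 53 were tested, 35 were above 0, and the median log2 fold change was 0.10. An unadjusted p under 0.05 was found for 12 of them, 9 higher and 3 lower, and 1 passed the adjusted threshold. That gene was Ddx60 (ENSMUSG00000037921, chromosome 8, 62381109 to 62491278), which encodes a helicase linked to antiviral sensing. Ddx60 had 30.1, 25.8, 25.0 and 37.9 normalised counts in Nestin;BrafKE/+ replicates 1 to 4 and 10.9, 9.001, 6.97, 12.1 and 7.01 in Braf+/+ replicates 1 to 5. Every mutant library had more Ddx60 than every control, and the control mean of 9.19 lay below the minimum mean for testing. The log2 difference of Ddx60 was 1.60 (SE 0.31, adjusted p = 0.0253), with within-series differences of 1.66, 1.02 and 2.28 in the order A, B, C. Leaving out 1 library ended the call for Ddx60 in 5 of 9 fits. Its adjusted p was 0.143, 0.0592 and 0.0885 without mutant replicates 1, 3 and 4 in turn, and 0.0535 and 0.0739 without control replicates 4 and 5. The fits without mutant replicate 4 and without control replicate 5 both remove series C and are 1 result, not 2. The fit without mutant replicate 1 removes series A, and the fit without control replicate 4 removes series B. Those losses are therefore not the effect of 1 library alone. The lowest gene of this list was Lgals3 at -0.90 (adjusted p = 0.214), a lectin also found in activated microglia.

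The list of GTPases that interferon-gamma induces also held Ciita, which is not a GTPase. It had 17 of 20 genes tested and 14 above 0, and 1 passed, Tgtp1, which was lower. The median log2 fold change of the list was 0.28, the value of Ciita itself. Tgtp1 (ENSMUSG00000078922, chromosome 11, 48876154 to 48884999) had 34.1, 22.8, 19.0 and 23.9 normalised counts in Nestin;BrafKE/+ replicates 1 to 4 and 43.7, 73.0, 52.8, 84.4 and 62.1 in Braf+/+ replicates 1 to 5. All mutant libraries lay below all controls, and the log2 fold change was -1.30 (SE 0.27, adjusted p = 0.0331). Tgtp1 shares 81.6% of its 31-base words with its near-identical copy Tgtp2, which differed by 0.44 (adjusted p = 0.560), so neither value is certain. Summed, as chosen after the data had been seen, the 2 copies had a log2 difference of -0.58 (SE 0.26) with an adjusted p of 0.272. The Tgtp1 call was also lost without any 1 of the 4 Nestin;BrafKE/+ libraries (adjusted p from 0.0591 to 0.0822) and without Braf+/+ replicate 2 (0.0620), replicate 4 (0.217) or replicate 5 (0.0855). Of these fits, those without Nestin;BrafKE/+ replicate 1 or 4 or Braf+/+ replicate 4 or 5 each lack a whole series. Unadjusted, Gbp3 at 0.56 (adjusted p = 0.0510) and Gvin1 at -0.50 (adjusted p = 0.255) also had a p under 0.05, both named after their values were seen. Gbp11 was the highest of the list at 0.62 (adjusted p = 0.415).

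Negative regulators of interferon signalling had 14 of 14 genes tested, 6 above 0 and 0 that passed in limma. Their log2 fold changes ran from -0.42 for Socs1 (adjusted p = 0.464) to 0.90 for Socs3 (adjusted p = 0.113), both suppressors of cytokine signalling. Without adjustment, a p under 0.05 was found for 2 of the 14, Socs3 and Pias1 (-0.16, adjusted p = 0.267), the latter named after its value was seen. For the 7 lists together, 0 genes passed without any 1 of Nestin;BrafKE/+ replicates 1, 3 and 4 or Braf+/+ replicates 4 and 5, and 1 passed without Nestin;BrafKE/+ replicate 2.

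**Figure D4:**
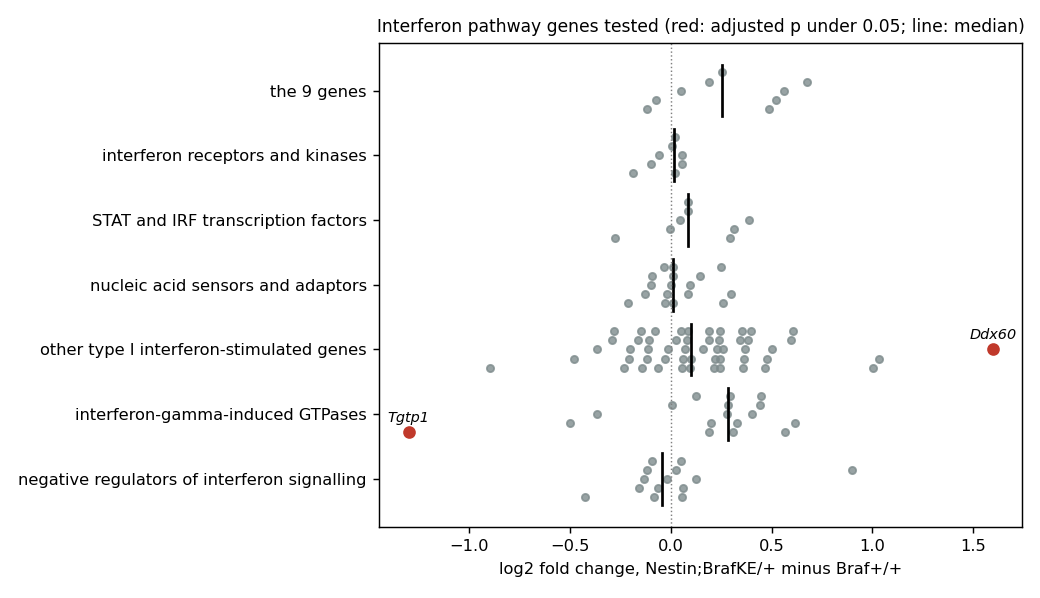
Log2 fold change (horizontal axis, Nestin;BrafKE/+ minus Braf+/+) of each tested gene in the 9 genes and in 6 pathway lists, 1 point per gene, with a vertical line at each median. Ddx60 at 1.60 and Tgtp1 at -1.30, in red, are the genes with an adjusted p under 0.05. The median of the 9 genes (0.25) lies beside that of the list of interferon-gamma-induced GTPases, which includes Ciita (0.28).

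Markers of the cell types in hippocampal tissue were summed in each library. Neuron markers summed to 191198 to 215267 normalised counts in Nestin;BrafKE/+ and 190174 to 209450 in Braf+/+, and hippocampal neuron markers to 19717 to 20862 and 17113 to 17599, so the labelled tissue carried its markers in every library. Of the 10 hippocampal neuron markers 3 passed as higher and 1 as lower, with a median log2 fold change of 0.09. They ran from -0.78 for Dsp to 0.61 for Wfs1. Microglia markers, from cells that respond strongly to interferon, summed to 8985 to 9784 in Nestin;BrafKE/+ and 8147 to 9026 in Braf+/+. Of the 12 microglia markers 10 were above 0 in log2 fold change and 0 passed in limma, with 4 at an unadjusted p under 0.05. Oligodendrocyte markers summed to 122875 to 132389 and 89596 to 108461, with no overlap, and 4 of 8 passed. Astrocyte markers summed to 98785 to 110239 and 93701 to 107081, but Slc1a2, with a log2 fold change of -0.06, made up most of that sum. Of the 10 astrocyte markers 2 passed, Gfap at 0.68 and S100b at 0.36, 7 had an unadjusted p under 0.05, all of them higher, and the median was 0.23. Blood cell markers, of which 7 of 12 were tested, summed to 3583 to 6276 and 3257 to 3656, and haemoglobin genes made up most of these sums. In limma 4 of the 7 had an unadjusted p under 0.05, all of them higher, and 0 passed. The leukocyte markers Ptprc and Cd52 had log2 fold changes of -0.02 and 0.05. Endothelial markers summed to 4541 to 5092 and 4315 to 5612, mural markers to 4571 to 5123 and 3878 to 5131, and meningeal fibroblast markers to 3710 to 4275 and 2438 to 8020. Above 0 in log2 fold change were 7 of 10 endothelial markers and 6 of 6 mural markers, and 0 of either passed in limma. Of the 8 meningeal fibroblast markers 5 were above 0 and 1 passed, Col1a1 at 0.96 (adjusted p = 0.0214). Choroid plexus markers ranged from 1439 to 24475 in Nestin;BrafKE/+ and from 4633 to 392459 in Braf+/+, where replicates 2 and 4 were high, and Ttr made up most of these sums. All 8 choroid plexus markers were below 0 in log2 fold change, with a median of -1.51. In limma 2 of them had an unadjusted p under 0.05 and 0 passed. Without Braf+/+ replicate 2 the log2 fold change of Ifit3 was 0.67 (adjusted p = 0.0977). Without Braf+/+ replicate 4, a fit that also lacks series B in the comparison, it was 0.63. The part of these cell types in the values of the 9 genes was not tested.

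**Figure D5:**
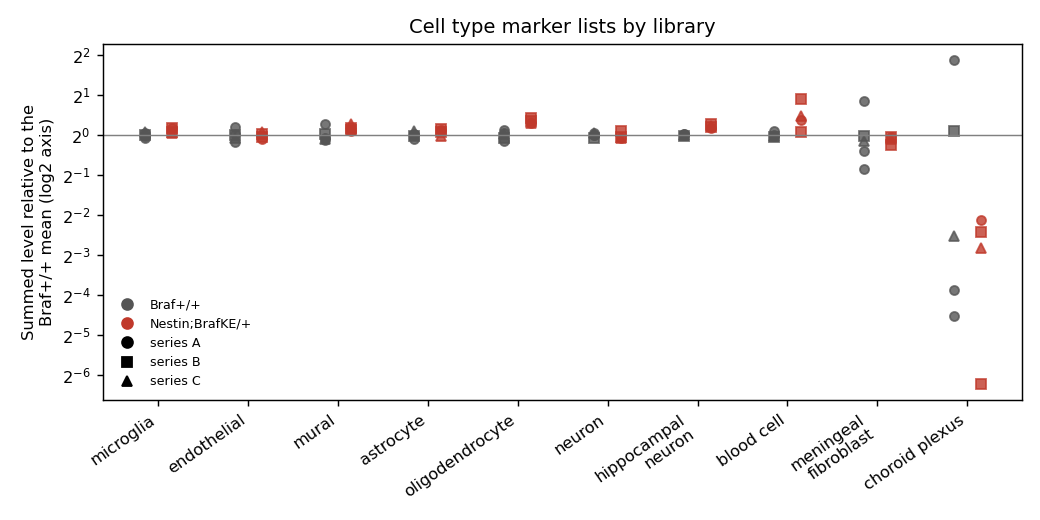
Summed level of each cell type marker list in each library, relative to the mean of the 5 Braf+/+ libraries (vertical log2 axis), with Braf+/+ in grey, Nestin;BrafKE/+ in red and marker shapes for the series of library names. Sums of oligodendrocyte and of hippocampal neuron markers do not overlap between the genotypes, although single hippocampal neuron markers passed in both directions. Choroid plexus markers range most widely, from 1439 to 392459 normalised counts.

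The mean profile of the 9 genes over the libraries, as log2 values less the mean of each series, was set beside that of 13225 other genes with a mean of at least 50 normalised counts. The most alike was Cox7a2, a subunit of mitochondrial complex IV, with Pearson's r of 0.997 and Spearman's rho of 1.00 over the 9 libraries. Cst3 (r 0.992, rho 0.933), Mtrf1 (r 0.992, rho 0.967), Gal3st1 (r 0.991, rho 0.883) and Slc49a4 (r 0.983, rho 0.933) followed. These genes share the libraries, the scaling and the removed series means, and the values of series C mirror each other by construction. They are the extremes of a search over many genes with few libraries, given as a description with no test. Each of the 5 had an adjusted p above 0.05 for genotype, from 0.0909 for Cst3 to 0.309 for Mtrf1.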

How the data were processed

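The authors trimmed reads with Trim Galore, aligned them to GRCm39 with STAR, quantified genes with Salmon, adjusted for batches they do not name and scaled for DESeq2. For each gene the deposited table holds a normalised signal in each library, called normalised counts here. The values had no 0 and are not sequenced reads, so no count model was used, the depth is unknown and precision comes from the spread between the libraries.

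The labels gave the groups, and all 9 libraries entered each fit. On log2(value + 1), which understates changes of low genes, limma 3.58.1 (R 4.3.3, lmFit, eBayes with a trend) tested genes whose mean was at least 10, with terms for genotype and for the name series. Two-sided p-values were adjusted over all these genes by Benjamini-Hochberg, and the threshold was 0.05. Single genes were also tested by permutation over all divisions, with p-values that are approximate for values already adjusted for batches. Spearman's rho came from scipy 1.17.1. The steps were tested on simulated data. Shared 31-base words and exons came from the Gencode annotation of GRCm39, and promoters from a RefSeq table of GRCm38.p6 located in GRCm39 by exact match.

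The 9 genes and all lists were chosen with earlier results of these data known. By rule, named genes were Braf, the 9 genes, the called, highest and lowest genes of each pathway list, and the 5 most alike in profile. The highest gene of 1 pathway list is not reported here. Outside the rule, Irf1, Gbp3, Gvin1, Pias1, Ifit3b, Tgtp2, Ciita and single cell type markers were named after their values were seen. Alternatives were other pseudocounts, filters, scalings, covariates, weights, variance models and thresholds, summed near-identical copies, and leaving out each library.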

Additional observations from a re-analysis of the deposited data

Results flagged for a closer look

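The highest and the lowest library of each genotype were compared with the rest for Braf, the 9 genes, 12 pathway genes and the marker sums, 64 sets of values in all. A single library stood apart in 4 sets, and chance gives about 1 in 20. In Braf+/+, choroid plexus markers summed to 392459 in replicate 2, and Gbp11, an interferon-induced GTPase, had 14.1 normalised counts in replicate 4. In Nestin;BrafKE/+, neuron markers summed to 215267 in replicate 2, and Socs3, a suppressor of cytokine signalling, had 42.2 normalised counts in replicate 1. None of the 9 interferon-stimulated genes had such a library in either group.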

How the results depend on the processing

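Of the 9 genes, 0 passed the threshold as reported, 1 passed without the series term (Ifit3, adjusted p = 0.0101), 1 at an adjusted p under 0.1, and 0 to 1 when a library was left out (leaving out either library of series C is the same comparison). Replicate numbers as a block gave 2 (Ifit3 at 0.0269 and Oasl2 at 0.0408), but the numbers do not pair the libraries, since same-numbered deviations correlated between -0.39 and 0.41 across genes. Over all its alternatives the adjusted p of Ifit3 ran from 0.0101 to 0.316 and its log2 fold change from 0.46 to 0.89. Genes whose log2 fold change reversed were Bst2 (-0.063 with 4 name prefixes, and -0.18 to 0.30 with a library left out) and, with a library left out, Irf9 (-0.19 to 0.035), Stat2 (-0.19 to 0.12) and Usp18 (-0.024 to 0.34). Over all genes the count of 466 became 2260 without the series term, 165 with 4 name prefixes, 1405 with the replicate block, 258 with array weights, 72 without a variance trend, 927 at an adjusted p under 0.1, and 42 to 371 when a library was left out. The 42 came without Nestin;BrafKE/+ replicate 1, a fit that lacks series A in the comparison. The 2 calls in the pathway lists became 1 at a minimum mean of 50, with array weights or without a trend, 13 without the series term, 11 with the replicate block, 10 at an adjusted p under 0.1, 0 with 4 name prefixes, and 0 to 2 when a library was left out. Without the series term the log2 fold change of Ifit3 stayed at 0.67. Deviations from the group means of mutant and control libraries of the same series correlated between -0.997 and -0.10 across genes. The causes of the changed counts were not tested. Pseudocounts, no filter, scalings and robust eBayes kept each of the 9 genes on its side of the threshold.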
